A study of Mus musculus with 15 samples.

Results

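The comparison described here set the *Foxp1* CRISPR clone E7.2 against its sister clone E7.1. Both are lines of A20, a B-cell lymphoma line from the BALB/c mouse. They were grown from separate single cells after electroporation with the same guide RNA against *Foxp1* exon 7 and a plasmid that expresses *Streptococcus pyogenes* Cas9. Per the labels, both carry the genotype of a mutation in *Foxp1* exon 7, and per the study's methods each clone has its own small deletion or insertion. The members were 6 of the 15 RNA-seq libraries, 3 of E7.1 and 3 of E7.2, and the 13904 of 41388 listed genes that passed a low-count filter. The remaining libraries, 3 each of A20 parental cells, which were unedited, and of the exon 6 clones E6.1 and E6.2, entered the same fit and are given only where a level in another line helps. The 3 libraries of an edited line came from separate passages of 1 clone. The tests therefore measure the spread between libraries of the same line, pooled over all 15, and not between independently edited clones.

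Foxp1 is a transcription factor of the forkhead family, whose members bind DNA through a winged-helix domain. In B cells it is known for roles in early B-cell development and in the germinal centre, and it is expressed in diffuse large B-cell lymphoma. A clone grown from 1 cell also carries whatever else that cell had, such as its own mutations and its own active and silent genes, and sister clones share the guide but not that history. The comparison of the 2 E7 clones therefore asks which genes differ between lines that were edited at the same exon.

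The targeted exon is shown in its reference sequence. The clones share this target, while each has its own deletion or insertion. It spans chr6:99015424-99015510 of GRCm38 on the reverse strand, is coding, and holds 87 bases in the GENCODE transcript Foxp1-204. It is numbered exon 7 in 3 of the 31 annotated transcripts, and between exon 3 and exon 8 in the 19 transcripts that hold it. Capitals mark the bases GG of a Cas9 recognition motif NGG whose 20-base target lies within the exon, of which there were 2 on the coding strand and 1, written as CC, on the other. The guide and the edited alleles were not analysed here.

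Foxp1 exon 7: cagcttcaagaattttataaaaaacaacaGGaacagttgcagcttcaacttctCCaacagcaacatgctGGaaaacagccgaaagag

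Total counts were between 32548069 and 37754704 in the 6 E7 libraries. Levels are given as CPM, counts scaled to a common total by the library's TMM-scaled size, and 3 counts over the 3 libraries of a clone correspond to 0.0273 CPM in E7.1 and 0.0282 CPM in E7.2. The B-cell markers were measured in all libraries, at a summed level over 12 genes of 4792 to 5379 CPM in E7.1 and 5238 to 6249.6 CPM in E7.2. *Cd3e*, *Lyz2* and *Col3a1*, markers of T cells, myeloid cells and fibroblasts, were at 0 counts in all 6. Other members of the T-cell, myeloid and fibroblast and epithelial lists had reads, among them *Cd2* (37 to 83 counts), *Cd68* (317 to 947) and *Epcam* (39 to 75). E7.2 replicate 3 stood apart. Its 10 genes with most reads took 14.7% of its counts, against 5.39% to 7.52% in the other 5 libraries, and it had the highest shares of mitochondrial (10.4%, against 1.90% to 5.82%) and ribosomal protein reads (13.1%, against 4.65% to 7.52%). By the rule of at least 1 CPM and at least 8 times the next highest E7 library, 29 genes stood out in E7.2 replicate 3 and between 0 and 2 in each other library. The numbers of called genes, and some of the list and window medians, are therefore also given without it.

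Between the clones 82 genes were called at an adjusted p under 0.05 (edgeR quasi-likelihood F-test, Benjamini-Hochberg over the 13904 genes), which is 0.590% of the genes tested. Of these, 51 were higher in E7.2 (0.367% of the genes tested) and 31 were lower (0.223%), and 77 of the 82 were protein coding. Most of the differences were large, with 47 of the higher and 27 of the lower genes changed at least 2-fold. The 6 libraries of the 82 called genes did not overlap between the clones for any of them, against 25.1% of all tested genes with no overlap. The median log2 fold change over all tested genes was -0.0022, which the scaling of the libraries sets close to 0.

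**Figure D1:**
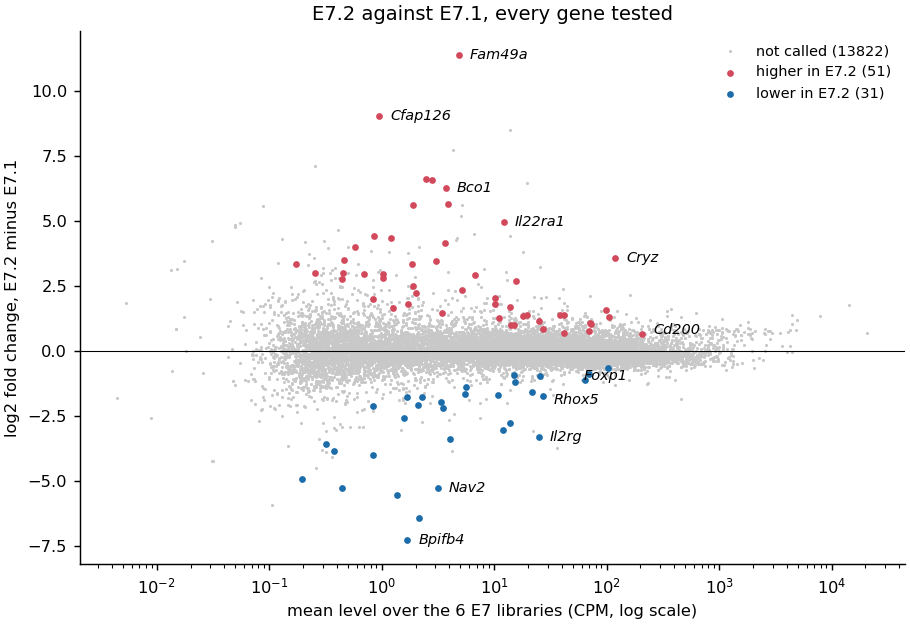
The log2 fold change of E7.2 minus E7.1 (y axis) is plotted against the mean level over the 6 E7 libraries in CPM (x axis, log scale), with 1 point for each of the 13904 genes. The 51 red genes are higher and the 31 blue genes lower in E7.2, and *Foxp1* lies among the grey genes that were not called.

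Without E7.2 replicate 3 the counts were 33 higher and 22 lower, and 48 of the 82 genes were called again. Of the 82 genes, 32 were called in all 6 fits that left out 1 E7 library and 17 in none of them. The test pools the spread over all 15 libraries. With the 6 E7 libraries alone it called 23 higher and 20 lower genes, 41 of them among the 82.

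*Foxp1* itself was not called between the clones. Its level was 41.7, 64.2 and 64.3 CPM in E7.1 and 37.1, 39.6 and 52.3 CPM in E7.2, and these ranges overlapped. The mean was 56.8 ± 13.03 CPM (SD, n = 3) in E7.1 and 43.0 ± 8.19 CPM (SD, n = 3) in E7.2, a log2 fold change of -0.40 ± 0.20 (SE) with an edgeR adjusted p of 0.391. A20 parental cells held 102, 166 and 147 CPM, above all 6 E7 libraries, and each clone was lower than parental cells, by -1.29 on the log2 scale in E7.1 (edgeR adjusted p = 0.00688) and -1.69 in E7.2 (edgeR adjusted p = 0.00116). The 6 libraries of the exon 6 clones lay between 99.5 and 109 CPM. Reads from *Foxp1* transcripts with a frameshift still count here, so these are RNA levels and not protein. Of the other 13 tested genes of the list of Foxp and Foxo factors and Foxp1 partners none was called, and the median of the list was -0.02. *Foxo1*, a forkhead factor that acts downstream of the B-cell receptor and PI3-kinase, had the smallest p among those besides *Foxp1*, with 164, 151 and 162 CPM in E7.1 and 164, 179 and 229 CPM in E7.2 (log2 fold change 0.27, edgeR adjusted p = 0.391).

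**Figure D2:**
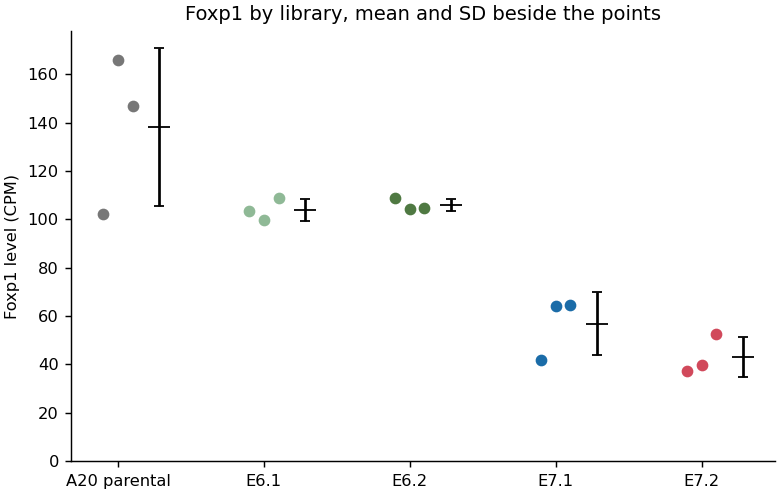
*Foxp1* level in CPM (y axis, from 0) in each of the 15 libraries, by line, with the mean and SD of 3 libraries in black. The E7.1 and E7.2 points overlap, and all 6 lie below the 3 of A20 parental cells, whose lowest library was at 102 CPM.

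*Fam49a* and *Cfap126* had no counts at all in E7.1 and were expressed in E7.2. *Fam49a* (ENSMUSG00000020589, chr12:12262139-12376359), whose protein binds active Rac1 and restrains actin remodelling, had 0 counts in each E7.1 library and 416, 395 and 233 counts in E7.2, or 11.0, 10.5 and 7.47 CPM. That is at least 359-fold higher in E7.2, taking 3 counts over the E7.1 group as its floor (edgeR adjusted p = 1.70e-07). *Cfap126* (chr1:171113918-171126967), which codes for a protein of the ciliary basal body, had 0 counts in each E7.1 library and 73, 80 and 52 in E7.2, at least 70.6-fold higher (edgeR adjusted p = 1.66e-05). In A20 parental cells *Fam49a* was at 6.71, 6.49 and 7.72 CPM and *Cfap126* at 1.27, 1.79 and 2.07 CPM, near the E7.2 values. Both genes were called again in all 13 alternatives.

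A further 3 genes had at most 3 counts in every library of 1 clone and at least 1 CPM in every library of the other. *Rhod*, a small GTPase of endosome transport, had 3, 1 and 1 counts in E7.1 and 106, 109 and 280 in E7.2, a ratio of 102 (95% exact interval 43.5 to 316, counting error only). Without E7.2 replicate 3, which held the highest count, the ratio was 62.8 (26.5 to 195). *Bpifb4*, a secreted protein of the family that binds lipids, ran the other way with 128, 136 and 107 counts in E7.1 and 2, 0 and 0 in E7.2, a ratio of 180 (49.4 to 1489). Its level in parental cells was 0.423, 0.240 and 0.524 CPM, below E7.1 and above E7.2. The predicted gene *Gm10863* had 116, 234 and 126 counts in E7.1 and 2, 2 and 1 in E7.2, a ratio of 92.2 (39.2 to 285), and parental cells held 5.26, 5.50 and 6.38 CPM. Of the 51 higher genes 25 were under 1 CPM in every E7.1 library, and of the 31 lower genes 12 were under 1 CPM in every E7.2 library.

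The promoters of *Fam49a* and *Cfap126*, at 0 counts in E7.1, and of *Il2rg*, a surface receptor lower in E7.2, are shown with each CG dinucleotide, the site of DNA methylation, in capitals. They are RefSeq windows of 250 bases before to 50 after the annotated start on GRCm38.p6, at chr12:12261927-12262226 (forward strand), chr1:171113736-171114035 (forward strand) and chrX:101268206-101268505 (reverse strand). The windows hold 22, 12 and 3 CG dinucleotides, against a median of 7 over the 32851 windows of the table. None holds the forkhead letters TGTTTAC on either strand, which 3.65% of all windows do. DNA methylation and Foxp1 binding were not measured. A window was found for 60 of the 82 called genes and for 9151 of the 13904 tested genes. No comparison over the set was made.

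Fam49a: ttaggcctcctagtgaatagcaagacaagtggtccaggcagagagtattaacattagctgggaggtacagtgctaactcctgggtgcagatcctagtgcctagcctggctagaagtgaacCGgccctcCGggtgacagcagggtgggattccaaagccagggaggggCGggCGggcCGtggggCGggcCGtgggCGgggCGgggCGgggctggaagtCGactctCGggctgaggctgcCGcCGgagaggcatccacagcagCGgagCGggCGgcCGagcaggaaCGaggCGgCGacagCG
Cfap126: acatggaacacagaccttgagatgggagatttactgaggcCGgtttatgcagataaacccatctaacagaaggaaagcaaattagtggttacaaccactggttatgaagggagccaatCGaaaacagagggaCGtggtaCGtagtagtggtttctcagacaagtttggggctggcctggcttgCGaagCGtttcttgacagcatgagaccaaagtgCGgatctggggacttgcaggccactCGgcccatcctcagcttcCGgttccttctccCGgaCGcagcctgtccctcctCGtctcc
Il2rg: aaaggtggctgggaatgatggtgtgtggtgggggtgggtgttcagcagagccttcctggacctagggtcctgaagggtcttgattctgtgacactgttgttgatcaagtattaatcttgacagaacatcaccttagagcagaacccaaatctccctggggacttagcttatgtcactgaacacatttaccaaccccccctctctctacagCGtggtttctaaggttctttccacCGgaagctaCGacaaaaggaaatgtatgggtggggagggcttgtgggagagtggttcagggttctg

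Receptors and signalling molecules at the cell surface changed in both directions. *Il2rg* (chrX:101264378-101268255) codes for the common gamma chain, which the receptors for interleukins 2, 4, 7, 9, 15 and 21 share. It was at 48.3, 48.4 and 39.4 CPM in E7.1 and 4.01, 4.75 and 5.26 CPM in E7.2. All 3 E7.1 libraries lay above all 3 of E7.2, a log2 fold change of -3.28 ± 0.27 (edgeR adjusted p = 1.66e-05), and it was called in all 13 alternatives. Parental cells, at 10.9, 9.29 and 11.1 CPM, lay between the E7 clones. The exon 6 clones lay below parental cells, E6.1 at 4.09 to 5.30 CPM and E6.2 at 1.02 to 2.63 CPM. E7.1 was thus the only edited clone above parental cells in *Il2rg*. The chains and the kinase that work with the common gamma chain, looked up because of it, were not called. *Il21r*, the chain specific for interleukin 21, was at 148, 160 and 136 CPM in E7.1 and 152, 163 and 150 CPM in E7.2. *Il4ra*, the chain for interleukin 4, had a log2 fold change of 0.44 (edgeR adjusted p = 0.348), and *Jak3*, the kinase that binds the gamma chain, one of 0.58 (edgeR adjusted p = 0.356). *Il2rg* was the only one of the 23 tested cytokine receptor and signalling genes that was called. Of the 23, 21 had a positive log2 fold change, against 49.6% of all tested genes, and the median was 0.21.

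*Il22ra1* (chr4:135728172-135752140), a receptor chain for interleukin 22, rose from 0.669, 0.536 and 1.04 CPM in E7.1 to 26.6, 27.3 and 16.9 CPM in E7.2 (log2 fold change 4.98 ± 0.44, edgeR adjusted p = 2.61e-05). Parental cells held 11.0, 12.7 and 13.5 CPM, above E7.1 (edgeR adjusted p = 0.000212), while the difference between E7.2 and parental cells was not called (edgeR adjusted p = 0.305). The exon 6 clone E6.2 was also low in *Il22ra1*, at 1.42, 0.847 and 0.241 CPM, and E6.1 held 20.4 to 22.6 CPM. *Fcgr2b*, the inhibitory Fc receptor of B cells, fell from 24.3, 21.6 and 18.6 CPM to 11.0, 9.89 and 7.25 CPM (log2 fold change -1.19 ± 0.22, edgeR adjusted p = 0.0246), and 2 of 6 fits that left out 1 library called it. *Tyro3*, a receptor kinase that recognises dying cells through bridging proteins, fell from 34.5, 30.2 and 32.5 CPM to 9.69, 12.1 and 10.7 CPM. E7.1 stood above parental cells (10.0, 6.49 and 6.29 CPM) in *Tyro3*, and 0 of 6 fits with 1 library left out called it. *Cd200*, a ligand that restrains myeloid cells through its receptor, rose from 154, 165 and 159 CPM to 262, 255 and 246 CPM, a log2 fold change of 0.68 ± 0.13 (edgeR adjusted p = 0.0348), and no fit with 1 library left out called it.

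Most other called surface genes were at low levels. *Jaml*, an adhesion molecule, was at 0.750, 0.281 and 0.447 CPM in E7.1 and 5.84, 4.799 and 6.03 CPM in E7.2, above the parental range of 0.614 to 1.15 CPM (log2 fold change 3.49, edgeR adjusted p = 0.0139). *P2rx7*, an ion channel opened by extracellular ATP, was at 0.134, 0.306 and 0.239 CPM in E7.1 and 1.53, 1.95 and 1.99 CPM in E7.2 (edgeR adjusted p = 0.0424), and no fit with 1 library left out called it. *Slco2a1*, a prostaglandin transporter, and *Tm4sf5*, a tetraspanin-like protein, rose with log2 fold changes of 3.00 each, and neither was called in any of the 6 fits with 1 library left out. *Pdgfrb*, a growth factor receptor best known from fibroblasts and pericytes, had 0, 1 and 2 counts in E7.1 and 8, 17 and 9 in E7.2. None of the other fibroblast and epithelial markers was called, and 0 of the 6 fits with 1 library left out called it. *Ms4a14* of the CD20 family had 34, 34 and 27 counts in E7.1 and 1, 0 and 1 in E7.2, and it too lost its call in all 6 of those fits. *Tnfrsf26*, a receptor of the tumour necrosis factor family, rose from 31.4 ± 0.882 CPM to 51.5 ± 5.70 CPM (SD, n = 3).

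**Figure D3:**
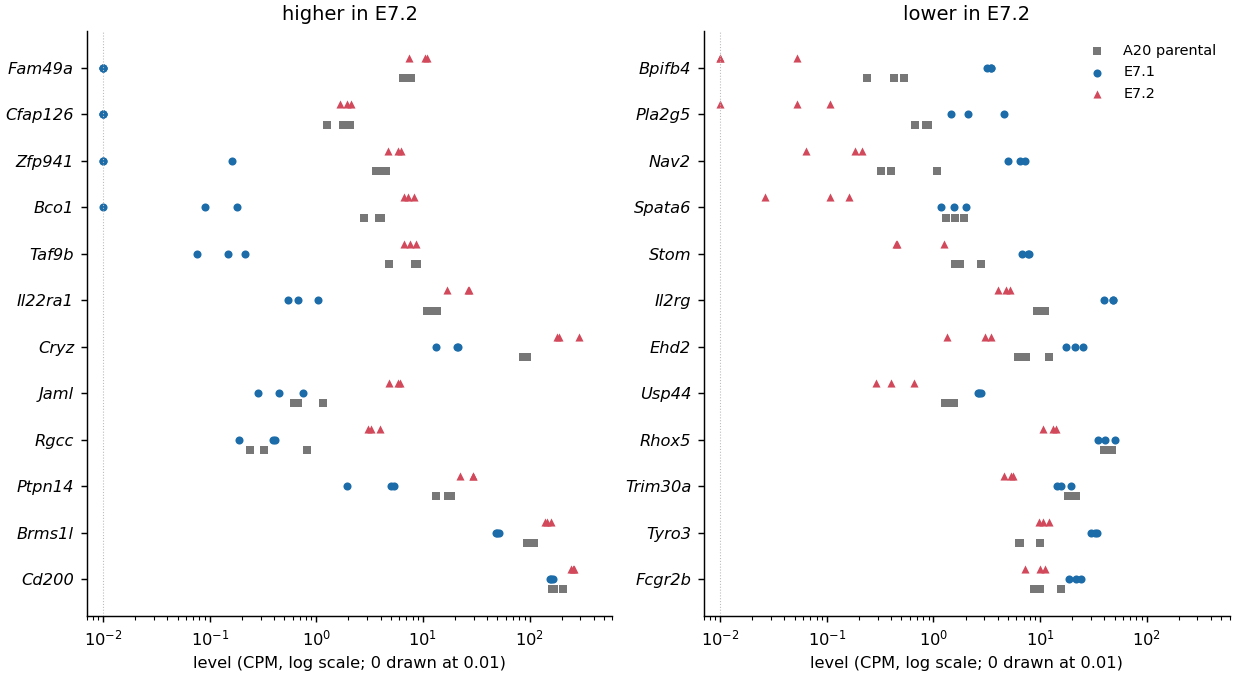
Levels in CPM (x axis, log scale, with 0 drawn at 0.01) of 12 genes higher in E7.2 (left) and 12 lower (right), with 1 marker per library for A20 parental cells (grey squares), E7.1 (blue circles) and E7.2 (red triangles). The E7.1 and E7.2 markers do not overlap for any of the 24 genes, and the parental markers lie near one clone, near the other or between them.

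Enzymes changed in both directions. *Cryz* (chr3:154596711-154623182), the zeta-crystallin that acts as an NADPH-dependent quinone reductase, was at 13.1, 21.3 and 21.03 CPM in E7.1 and 181, 191 and 289 CPM in E7.2. Its log2 fold change was 3.58 ± 0.22 (edgeR adjusted p = 7.90e-07). Parental cells held 93.4, 87.4 and 94.0 CPM, and the 6 exon 6 clone libraries ranged from 15.3 to 161 CPM. *Cryz* shares exon sequence with *Tyw3*, which had a log2 fold change of 0.09 (edgeR adjusted p = 0.918). *Bco1*, which cleaves beta-carotene to retinal, had 0, 0.179 and 0.0895 CPM in E7.1 and 6.60, 7.25 and 8.18 CPM in E7.2 (edgeR adjusted p = 1.94e-05). Parental cells held 2.78 to 4.05 CPM of *Bco1*. E6.2 was also low in it, at 0.236, 0.0907 and 0.180 CPM, and E6.1 held 7.29 to 8.66 CPM. *Pla2g5*, a secreted phospholipase, fell from 4.55, 1.46 and 2.09 CPM to 0.0528, 0.107 and 0 CPM (edgeR adjusted p = 0.00101). *Aldh3b1*, an aldehyde dehydrogenase, and *Smpdl3b*, a phosphodiesterase of the sphingomyelinase family, also fell, with log2 fold changes of -2.05 and -1.76. Of the 6 fits with 1 library left out, 1 called *Aldh3b1* and 3 called *Smpdl3b*. *Adcy7*, an adenylyl cyclase that makes cyclic AMP, rose from 15.2, 14.4 and 16.8 CPM to 31.8, 37.5 and 33.5 CPM, and was called in all 13 alternatives.

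Several nuclear factors rose. *Brms1l* and *Sap30*, both subunits of the Sin3 histone deacetylase complex, were higher in E7.2. *Brms1l* was at 51.6, 48.6 and 49.7 CPM in E7.1 and 147, 140 and 158 CPM in E7.2 (log2 fold change 1.57 ± 0.15, edgeR adjusted p = 4.60e-05), and *Sap30* at 48.4, 45.8 and 41.3 CPM against 94.7, 88.3 and 108 CPM (log2 fold change 1.10 ± 0.15, edgeR adjusted p = 0.00202). Both held in all 13 alternatives, and for both genes parental cells lay between the clones, at 95.6 to 109 CPM and 60.7 to 69.1 CPM. *Taf9b*, a subunit of the general transcription factor TFIID, was at 0.214, 0.0766 and 0.149 CPM in E7.1 and 6.71, 7.52 and 8.63 CPM in E7.2, with 4.84 to 8.89 CPM in parental cells. *H1fx*, a linker histone, was at 0.0536, 0.0511 and 0.119 CPM in E7.1 and 5.04, 4.77 and 1.48 CPM in E7.2. Parental cells held 1.33 to 2.75 CPM of *H1fx*, E6.1 held 2.78 to 4.81 CPM and E6.2 0, 0.0302 and 0 CPM. The zinc finger genes *Zfp941*, *Zfp651* and *Zscan12* were higher in E7.2 than in E7.1. *Zfp941* was at 0.161, 0 and 0 CPM in E7.1 and 5.89, 4.67 and 6.22 CPM in E7.2. Parental cells held 3.63 to 4.51 CPM of *Zfp941*, nearer to E7.2. *Kdm4b*, a histone H3 lysine 9 demethylase, rose from 9.93 ± 0.861 CPM to 20.05 ± 3.74 CPM (SD, n = 3). The DNA glycosylase *Neil2* rose as well (log2 fold change 2.03, edgeR adjusted p = 0.0348). With 1 library left out *Kdm4b* and *Neil2* were called in 2 and *Zfp651* in 3 of 6 fits.

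Among nuclear factors that fell, *Nfix*, of the nuclear factor I family, went from 7.04, 8.48 and 8.74 CPM to 2.83, 2.72 and 3.82 CPM (edgeR adjusted p = 0.00436). *Usp44*, a deubiquitinase of the mitotic checkpoint, went from 2.78, 2.60 and 2.65 CPM to 0.660, 0.3999 and 0.289 CPM. *Rhox5*, an X-linked homeobox gene of the germline, was at 50.6, 40.7 and 34.7 CPM in E7.1 and 13.2, 14.1 and 10.6 CPM in E7.2 (log2 fold change -1.73 ± 0.20, edgeR adjusted p = 0.000431). Parental cells, at 44.0, 39.9 and 47.8 CPM, were near E7.1 in *Rhox5*, and the exon 6 clones lay at 2.87 to 8.68 CPM. It was the only one called of the 12 tested germline genes that are known to be silenced by DNA methylation in other cells. None of the 25 tested DNA methylation and Polycomb regulators was called, and *Dnmt3b*, a de novo DNA methyltransferase, had the smallest p of them (12.4, 12.3 and 13.2 CPM against 8.79, 8.40 and 9.88 CPM, edgeR adjusted p = 0.307).

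Cytoskeletal and membrane-shaping genes changed in both directions. *Daam1*, a formin that nucleates actin filaments, rose from 21.9, 23.5 and 23.7 CPM to 65.2, 66.7 and 50.6 CPM (log2 fold change 1.40 ± 0.13, edgeR adjusted p = 5.68e-05). Parental cells held 44.1 to 52.0 CPM of *Daam1*. The exon 6 clones were near E7.1, with E6.1 at 20.6 to 25.4 CPM and E6.2 at 18.2 to 19.6 CPM. *Ehd2*, an ATPase that remodels membranes at caveolae, fell from 25.5, 17.5 and 21.4 CPM to 3.01, 3.47 and 1.35 CPM (log2 fold change -3.03 ± 0.48, edgeR adjusted p = 0.00705). *Stom*, the membrane protein stomatin, fell from 7.87, 6.74 and 7.76 CPM to 0.449, 0.453 and 1.25 CPM, and *Nav2*, a microtubule-associated neuron navigator, from 4.95, 7.15 and 6.53 CPM to 0.185, 0.213 and 0.0641 CPM. Parental cells held 1.601 to 2.81 CPM of *Stom* and 0.320 to 1.09 CPM of *Nav2*, below E7.1 in each case. *Ank3*, which codes for ankyrin G, had 21, 24 and 20 counts in E7.1 and 3, 1 and 1 in E7.2. With 1 library left out *Ank3* was called in 0 and *Stom* in 1 of 6 fits. Genes best known from muscle, *Myh3* and *Myom3*, rose from under 0.2 CPM in every E7.1 library to between 0.385 and 3.34 CPM in E7.2. Of the 6 fits with 1 library left out, 1 called *Myh3* and 4 called *Myom3*.

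Phosphatases and stress genes were among the called genes too. The tyrosine phosphatase gene *Ptpn14* rose from 1.95, 5.34 and 5.04 CPM to 22.3, 29.6 and 29.3 CPM (log2 fold change 2.72 ± 0.30, edgeR adjusted p = 0.000271), and the MAP kinase phosphatase gene *Dusp9* fell from 0.562, 0.843 and 0.746 CPM to 0.0264, 0.107 and 0 CPM. *Rgcc*, a regulator of the cell cycle, was at 0.187, 0.409 and 0.388 CPM in E7.1 and 3.27, 3.04 and 3.91 CPM in E7.2, above the parental range of 0.240 to 0.816 CPM. *Ddit4*, a stress-induced inhibitor of mTORC1, was at 14.03, 24.2 and 26.4 CPM in E7.1 and 44.6, 44.6 and 78.6 CPM in E7.2 (log2 fold change 1.38 ± 0.28, edgeR adjusted p = 0.0372). *Ndrg1*, which is also induced by stress and low oxygen, rose from 2.28, 5.13 and 6.17 CPM to 12.7, 16.4 and 18.8 CPM. For *Ddit4* 1 of 6 and for *Ndrg1* 2 of 6 fits with 1 library left out made the call. In *Ddit4*, *Ptpn14* and *Ndrg1* alike, E7.1 replicate 1 held the lowest value.

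Broadly expressed genes changed by smaller amounts. *Tsnax*, the partner of the RNA-binding protein translin, fell from 99.0, 85.4 and 86.6 CPM to 46.9, 49.5 and 50.5 CPM (log2 fold change -0.88 ± 0.13, edgeR adjusted p = 0.00473), below the parental range of 77.6 to 92.6 CPM. *Fgfr1op*, a centrosomal protein, fell from 97.7, 81.0 and 83.0 CPM to 39.4, 36.6 and 46.4 CPM, and *Eif2b3*, a subunit of the exchange factor for the initiation factor eIF2, from 130, 125 and 122 CPM to 80.1, 75.4 and 83.9 CPM. *Abr*, a regulator of small GTPases, fell by 0.95 on the log2 scale and *Pdcl*, a chaperone of G protein subunits, rose by 1.05. *Fam117b* rose by 0.77. *Tsnax*, *Fgfr1op* and *Pdcl* were called in at least 5 of the 6 fits with 1 library left out, *Eif2b3* and *Fam117b* in 1 and *Abr* in 0.

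The remaining called genes were of mixed function. *Cln3*, a lysosomal membrane protein that is mutated in juvenile Batten disease, was at 0.187, 0.0766 and 0.0597 CPM in E7.1 and 1.61, 1.79 and 3.50 CPM in E7.2 (log2 fold change 4.35 ± 0.47, edgeR adjusted p = 0.00024), and the noncoding gene *9330111N05Rik* at 0.321, 0.409 and 0.418 CPM against 5.52, 6.51 and 8.88 CPM. *Speer4a*, one of a family of near-identical copies, was at 1.21, 1.76 and 1.73 CPM against 12.6, 14.1 and 9.43 CPM. *Armcx3*, a protein of the mitochondrial outer membrane, rose from 9.91, 11.6 and 11.3 CPM to 24.2, 22.4 and 38.8 CPM, and *Serpinf1*, a secreted serpin, from 2.06, 1.89 and 1.52 CPM to 4.46, 3.95 and 6.93 CPM, with parental cells below both at 0.605 to 0.828 CPM. *Arap3*, *Gm45837*, *C530050E15Rik*, *Prss41*, *Gbp11*, *Tbc1d16*, *Gm14443*, *Slc9a2*, *Sipa1*, *Coq10a* and *Ngrn* rose by 2.97 down to 0.85 on the log2 scale. With 1 library left out *Prss41* was called in all 6 fits, *Gbp11* in 4 and *Tbc1d16* and *Coq10a* in 2. *Serpinf1*, *Gm45837* and *C530050E15Rik* were called in 1 of those fits, and *Arap3*, *Gm14443*, *Slc9a2*, *Sipa1* and *Ngrn* in 0. Among genes that fell, *Mcoln3*, a cation channel of endosomes and lysosomes, went from 3.59, 7.64 and 5.91 CPM to 1.43, 1.41 and 0.898 CPM and *Dzip1*, a protein of the ciliary base, from 4.98, 5.92 and 5.22 CPM to 1.43, 1.28 and 1.44 CPM. *A630095E13Rik*, *Plek2* and *Hip1*, an adaptor of clathrin-coated vesicles, had log2 fold changes of -2.10, -1.76 and -0.90. With 1 library left out *Mcoln3* and *A630095E13Rik* were called in 1 and *Plek2* and *Hip1* in 0 of 6 fits. Reads were counted without strand, and *Il2rg*, *Rhod*, *H1fx*, *Jaml*, *Cln3* and *Stard5* are among the called genes with an exon that overlaps another annotated gene.

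The gene lists, which cover pathways and cell functions that bear on B-cell lymphoma and on Foxp1, held few called genes, and none had more than 1. In the interferon-stimulated list 29 of 46 genes were tested, and *Trim30a*, an interferon-induced regulator of Toll-like receptor signalling, was called. It fell from 19.4, 14.5 and 15.7 CPM to 5.55, 5.33 and 4.62 CPM (log2 fold change -1.68 ± 0.28, edgeR adjusted p = 0.0106), with 18.4 to 21.6 CPM in parental cells. The median of that list was -0.01, and 14 of the 29 genes had a positive log2 fold change. *Fcgr2b* was the only called gene of the 32 for B-cell receptor signalling, *Cd200* of the 17 tested immune synapse ligands and *Ddit4* of the 21 tested genes of the Atf4 stress response. In the Atf4 list 7 genes (33.3%) were higher and 0 lower at an unadjusted p under 0.05, against 7.47% higher and 5.80% lower of all tested genes, and its median was 0.36, against -0.0022 over all genes. Without E7.1 replicate 1 that median was 0.15.

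The cholesterol list had the lowest median of the pathway lists, at -0.51 over 25 tested genes. Of these, 24 had a negative and 1 a positive log2 fold change, against 49.6% positive over all tested genes. No gene of the list was called. At an unadjusted p under 0.05, 4 (16.0%) were lower, against 5.80% of all tested genes lower and 13.3% in either direction. *Hsd17b7*, a reductase of the late cholesterol pathway, had the smallest p (63.2, 33.2 and 39.2 CPM in E7.1 and 24.7, 25.2 and 13.2 CPM in E7.2, edgeR adjusted p = 0.271). E7.2 replicate 3 was the lowest and E7.1 replicate 1 the highest library of *Hsd17b7*, and the median of the list was -0.28 without E7.2 replicate 3. The G1 cell cycle list had a median of -0.21 over 22 genes with none called, and -0.08 without E7.2 replicate 3. *Ccne1*, which codes for the G1/S cyclin E1, had the smallest p there (79.1, 47.0 and 47.2 CPM against 31.3, 32.8 and 8.24 CPM, edgeR adjusted p = 0.250).

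The oxidative phosphorylation list had a median of -0.14 over 77 genes, with none called. At an unadjusted p under 0.05 it had 10 genes (12.99%), all lower, against 13.3% of all tested genes in either direction and 5.80% lower. Its smallest p was that of *Ndufa4*, a subunit of cytochrome c oxidase (253, 244 and 242 CPM against 218, 176 and 159 CPM, edgeR adjusted p = 0.307). The glycolysis list had a median of 0.04 over 24 genes with none called. *Slc16a3*, the lactate exporter MCT4, was nearest to a call there, at 2.22, 1.89 and 6.12 CPM in E7.1 and 14.6, 19.0 and 8.24 CPM in E7.2 (log2 fold change 2.04, edgeR adjusted p = 0.112).

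No gene was called in the lists of MHC class II presentation (18 genes, median -0.03) and class I presentation (22 genes, median 0.03). In the first, *H2-Oa*, a chain of the peptide-loading modulator H2-O, had the smallest p (edgeR adjusted p = 0.342). In the second it was *Psmb10*, an immunoproteasome subunit (edgeR adjusted p = 0.375). The 19 B-lineage transcription factors had a median of 0.10 with none called, and *Id2*, which blocks E-protein factors, had the smallest p, at 17.5, 8.45 and 8.80 CPM against 6.15, 6.53 and 3.69 CPM (edgeR adjusted p = 0.291). None of the 20 tested germinal centre and plasma cell genes was called (median 0.04). The NF-kB list (23 genes, median 0.27) and the list of homing and adhesion receptors (15 genes, median 0.13) held no called gene either, and the genes nearest to a call were *Nfkbia*, the inhibitor of NF-kB, at an edgeR adjusted p of 0.237 and *S1pr1*, the receptor that guides lymphocytes out of tissue, at 0.206. In *S1pr1*, E7.2 replicate 3 held 61.9 CPM, against 22.7 and 23.4 CPM in the other E7.2 libraries. Among 27 Bcl2 family and death receptor genes (median 0.00) *Bcl2a1b* had the smallest p (edgeR adjusted p = 0.223).

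**Figure D4:**
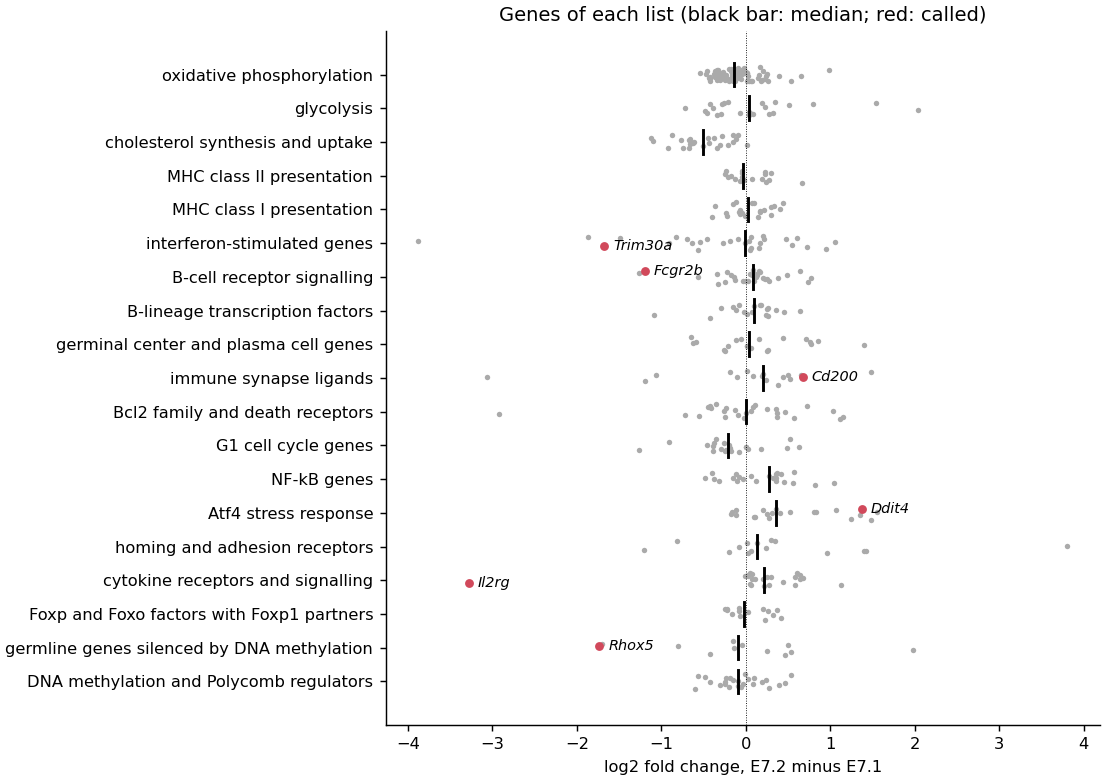
Each point is a tested gene of a list, at its log2 fold change of E7.2 minus E7.1 (x axis), with the median of the list as a black bar and called genes in red. At most 1 gene per list is red, and the medians of the lists lie between -0.51 (cholesterol synthesis and uptake) and 0.36 (Atf4 stress response).

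Markers of the line and of other cell types were measured alongside. None of the 12 B-cell markers was called (median 0.20), and *Cd22*, an inhibitory receptor of B cells, had the smallest p (edgeR adjusted p = 0.269). The summed level of the 14 T-cell markers was 5.19 to 6.41 CPM in E7.1 and 3.72 to 5.84 CPM in E7.2, with 6 of the 14 at 0 counts throughout. That of the 14 myeloid markers was 11.4 to 19.0 CPM and 14.1 to 34.8 CPM, with 5 at 0. The 12 fibroblast and epithelial markers summed to 1.73 to 2.38 CPM and 1.61 to 2.31 CPM, and the 10 erythroid markers to 2.49 to 3.28 CPM and 1.93 to 2.76 CPM. Of these lists only *Pdgfrb* was called. *Cd4*, *Ly6c2* and *Hbb-bt* had the smallest p of the T-cell, myeloid and erythroid markers, at edgeR adjusted p of 0.368, 0.237 and 0.370. In bulk RNA, fewer cells that express a gene and less of its RNA per cell cannot be told apart.

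The genes that the study names as lower in its clones or as candidate off-targets of the guides were not called between the clones. None of the 9 tested was called. *Iglv2*, *Phyhip*, *Lgr6* and *Meioc* were chosen on these samples, so they are not independent of the data, while *Map1b* and *Ovgp1* were picked for sequence that resembles the exon 6 guides and *Rhpn2*, *Nemp1*, *Nemp2* and *Zfp804b* for sequence that resembles the exon 7 guide. *Phyhip*, *Meioc*, *Map1b* and *Iglv2* were under 0.5 CPM in all 6 E7 libraries. *Iglv2*, an immunoglobulin lambda variable segment whose reads may be shared with related segments, was at 0.0536, 0.128 and 0.209 CPM in E7.1 and 0.317, 0.160 and 0.481 CPM in E7.2, against 16.2 to 20.2 CPM in parental cells. *Lgr6*, a receptor for R-spondins, was at 0.0977 ± 0.0491 CPM and 0.263 ± 0.136 CPM (SD, n = 3, edgeR adjusted p = 0.271), and *Rhpn2* at 0.873 ± 0.297 CPM and 1.26 ± 0.134 CPM (edgeR adjusted p = 0.516). The nuclear envelope gene *Nemp1* was at 98.6 and 98.6 CPM in E7.2 replicates 1 and 2 and at 38.2 CPM in replicate 3, with 82.4 to 91.8 CPM in E7.1, and its direction turned without replicate 3. *Nemp2* and *Ovgp1* had edgeR adjusted p of 0.933 and 0.885. *Zfp804b* had 0 counts in all 6 libraries and was not tested.

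Called genes lay across the genome, and 3 pairs of them were neighbours within 100 kb, each moving in the same direction. The pairs were looked for after the called genes were known. *Il22ra1* and *Myom3* lie 7575 bases apart on chromosome 4 and were both higher in E7.2. *Tmc3* and *Stard5* lie 6345 bases apart on chromosome 7 and were higher as well, *Tmc3* at 3.37, 9.14 and 6.86 CPM against 21.3, 22.3 and 19.6 CPM and *Stard5*, a lipid-transfer protein, at 37.6, 79.9 and 64.0 CPM against 127, 120 and 201 CPM. *Gm16638*, which lies between them and was tested, was not called (log2 fold change 0.22, edgeR adjusted p = 0.803), and with 1 library left out *Tmc3* was called in 4 and *Stard5* in 1 of 6 fits. *Nipa1*, a magnesium transporter, and the noncoding gene *A230056P14Rik* overlap on chromosome 7 and were both lower. *A230056P14Rik* fell from 30.2, 18.7 and 23.2 CPM to 3.22, 3.31 and 4.07 CPM (log2 fold change -2.77 ± 0.21, edgeR adjusted p = 8.61e-06) and *Nipa1* from 11.3, 6.28 and 7.58 CPM to 2.54, 2.56 and 3.05 CPM (log2 fold change -1.63 ± 0.27, edgeR adjusted p = 0.00942). Reads in their shared stretch cannot be assigned to either gene.

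The genome was also read in windows of 5 Mb with at least 8 tested genes. The medians of the 19 autosomes lay between -0.06 and 0.04. Chromosome 7 held the most called genes, 12 of its 1019 tested, against 82 of 13904 (0.590%) over all tested genes. On chromosome 11, with 1177 tested, 4 were called higher and 1 lower. The spread of called genes over chromosomes was not tested. Of 437 windows, 2 had a median beyond 0.4 in either direction. The others lay between -0.39 and 0.36. The window at 55 to 60 Mb of chromosome 7, around *Nipa1*, had a median of -0.44 over 10 genes, 8 of them negative. Besides the overlapping pair it held *Ube3a*, an imprinted ubiquitin ligase gene (345, 238 and 313 CPM against 236, 231 and 199 CPM, edgeR adjusted p = 0.322), and *Gm38393* (edgeR adjusted p = 0.342), and its median was -0.30 without E7.2 replicate 3. The window at 10 to 15 Mb of chromosome 5 had a median of 2.17 over 9 genes, with none called. Without E7.2 replicate 3 it was 0.31. *Gm5152* showed this most clearly, at 3.32, 2.27 and 1.25 CPM in E7.1 and 2.96, 2.88 and 32.8 CPM in E7.2, and *Gm8890*, *Gm5861* and *Gm8879*, which are also predicted genes, had their highest value in the same library.

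Each clone was also compared with A20 parental cells in the same fit. At an adjusted p under 0.05, 1.22% of the tested genes (169) were called for E7.1 and 0.295% (41) for E7.2. The 2 comparisons share the parental libraries and each shares its clone with the comparison above, so they are given side by side and not tested against each other. *Fam49a* had 0 counts in E7.1 and a log2 fold change of 0.47 from parental cells in E7.2, and *Taf9b* values of -5.62 and 0.05. Several other genes described above as rising were called below parental cells in E7.1 and not called in E7.2. Their values were -6.13 and 0.46 for *Zfp941*, -5.24 and 1.04 for *Bco1* and -4.72 and 0.90 for *H1fx*. *Ptpn14* (-1.98 and 0.74), *Zscan12* (-1.16 and 0.12) and *Daam1* (-1.06 and 0.34) were called in the same way. For *Brms1l* the values were -1.03 and 0.54, for *Cryz* -2.31 and 1.27 and for *Il2rg* 2.12 and -1.16, with opposite signs in the clones. The E7.1 value was called for each of the 3 genes, while the E7.2 value was called for *Cryz* (edgeR adjusted p = 0.0131) and not for *Brms1l* (0.165) or *Il2rg* (0.0950). *Espnl*, *Jaml* and *Rgcc* had values of 0.07, -0.71 and -0.47 in E7.1 and 2.43, 2.77 and 2.89 in E7.2. *Spata6* and *Proser2* had -0.02 and 0.08 in E7.1 and -4.03 and -4.83 in E7.2. *Proser2* had only 12, 14 and 16 counts in E7.1 and 1, 0 and 0 in E7.2. Between the clones 0 of 6 fits with 1 library left out called it. Of these 5 genes all but *Jaml* (edgeR adjusted p = 0.0776) were called in E7.2 against parental cells, and none was called in E7.1.

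**Figure D5:**
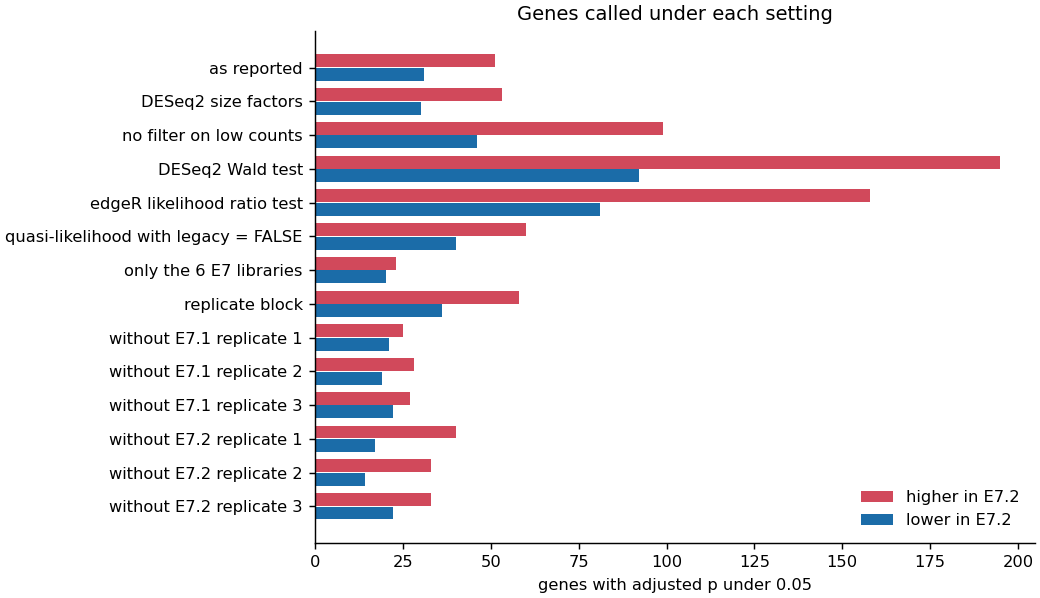
Number of genes with an adjusted p under 0.05 that were higher (red) or lower (blue) in E7.2, as reported (51 and 31) and under each of 13 alternatives. The DESeq2 Wald test gave the most genes (195 and 92), and the 6 E7 libraries alone gave the fewest higher genes (23).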

How the data were processed

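The labels give the line and replicate number of each library, and RNA of each edited clone was taken from separate passages. Per the file headers and the submitters' processing notes, the authors aligned reads with HISAT, counted read pairs per gene with featureCounts 1.5.0 on GRCm38 and deposited raw counts. Pairs were counted without strand, so reads of overlapping or antisense genes cannot be assigned, and an exon of 20 of the 82 called genes overlaps another gene. Fold changes of multi-copy genes such as *Speer4a*, *Gbp11* and *Gm14443* are uncertain.

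The members and the gene lists were chosen with earlier results of these data known. Counts of all 15 libraries were fitted with edgeR 4.0.16 (TMM, filterByExpr by line, quasi-likelihood F-test, Benjamini-Hochberg over the 13904 genes tested, adjusted p under 0.05) in R 4.3.3. DESeq2 1.42.0 served as an alternative. Total counts of all libraries ran from 26328054 to 39181530, and floors and exact 95% intervals cover counting error only. The test was checked on simulated counts. Gene names came from GENCODE M21 (40254 identifiers matched).

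Genes were named by rule. These were *Foxp1*, in each direction the 15 largest changes and the 8 with the highest mean CPM among called genes, called list members (up to 6 per list) or otherwise the member with the smallest p, genes named by the study, genes with at most 3 counts in 1 clone, and 4 genes per described window. Further genes are called genes given as examples or were looked up, as stated. Lists and windows are described by counts and medians, with no set test. For 1 list the member with the smallest p is not reported here.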

Additional observations from a re-analysis of the deposited data

How the results depend on the processing

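The settings were another normalization, another filter or test, the 6 E7 libraries alone, the replicate number as a block, and each E7 library left out. Counts of higher and lower genes were 99 and 46 (lower within 1.5 times of the reported count) with no filter on low counts, 195 and 92 with the DESeq2 Wald test, 158 and 81 with the edgeR likelihood ratio test, and 23 and 20 with the 6 E7 libraries alone. DESeq2 size factors gave 53 and 30, and the newer quasi-likelihood method of edgeR 60 and 40. With 1 E7 library left out the counts ran from 25 to 40 higher and from 14 to 22 lower genes. Of the 82 called genes 28 were called under all 13 alternatives, 20 of the higher and 12 of the lower in all 6 fits with 1 library fewer, and none changed direction. *Foxp1* was called under none, with adjusted p between 0.339 and 0.652. Of the genes not called, the log2 fold change of *Nemp2*, which ran from -0.074 to 0.34 with 1 library left out, turned to -0.055 without E7.1 replicate 1, -0.074 without E7.2 replicate 1 and -0.071 without E7.2 replicate 2. That of *Nemp1* ran from -0.34 to 0.20 and turned to 0.20 without E7.2 replicate 3. The cause was not tested. List and window medians moved by more than the spread of the libraries in 37 of 351 recomputations.

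Replicate numbers were not used to pair the samples in the main fit. The correlation of deviations between same-numbered E7.1 and E7.2 libraries was between -0.19 and 0.22. For unlike numbers it was between -0.22 and 0.24. These values cover the E7 lines only, and whether libraries of the same number in any lines were prepared together was not tested. With the replicate block 58 genes were higher and 36 lower.

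Levels at or under 3 counts in a library (0.0766 to 0.0962 CPM) are not resolved at this depth.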

Other observations

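The 29 genes that stood out in E7.2 replicate 3 were seen after their values were known and are given as values. *Ccr7*, the chemokine receptor that guides lymphocytes to lymph nodes, was at 89.7 CPM there, against 4.94 and 6.32 CPM in the other E7.2 libraries and 0.884 to 4.19 CPM in E7.1. *Tent5c*, a poly(A) polymerase of plasma cells, was at 123 CPM against 6.89 and 7.84 CPM, *Cpt1a*, which takes long-chain fatty acids into mitochondria, at 106 CPM against 10.6 and 10.4 CPM, and *Fosl2*, a subunit of the transcription factor AP-1, at 36.0 CPM against 0.819 and 0.906 CPM. *Fosl2* and *Plb1*, a phospholipase gene at 25.6 CPM against 0.423 and 0.613 CPM, lie next to each other on chromosome 5. *Npr2*, a natriuretic peptide receptor, was at 25.9 CPM against 0 and 0.0533 CPM. In the exon 6 clone E6.2, replicate 3 was the highest of its line for 21 of the 29 genes, and by the same rule of 8 times and 1 CPM within its line for 8. Examples chosen for high values were *Ccr7* (71.4 CPM against 4.68 and 6.83 CPM), *Cpt1a* (118 CPM against 4.21 and 3.48 CPM) and *Npr2* (20.8 CPM against 1.61 and 0.544 CPM). Genes for which it was not the highest include *Mpzl2* and *Nr4a3*. None of these genes was called between the E7 clones. E7.2 replicate 3 is 1 library, and whether its culture or its preparation differed was not tested.

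Ribosomal protein genes were higher in E7.2 in 73 of 76 tested, with a median log2 fold change of 0.69, against 49.6% of all tested genes with a positive value. Without E7.2 replicate 3, an alternative added after seeing the data, 62 of 76 were positive and the median was 0.14. The shares of ribosomal protein reads were 4.65%, 7.52% and 6.28% in E7.1, lowest in replicate 1. In E7.2 replicates 1 and 2 they were 6.86% and 6.73%, within the E7.1 range. Mitochondrial genes had a median of 0.38 over 30 tested, and -0.11 without E7.2 replicate 3. None of either kind was called in either fit.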
